A study of Mus musculus with 9 samples.

Results

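Cholesterol biosynthesis was followed through 7 of its enzymes, Hmgcs1, Idi1, Fdft1, Sqle, Lss, Cyp51 and Dhcr7, in the mouse anterior lens capsule, the basement membrane over the front of the lens with its attached epithelium. The genes were taken by a list of symbols and are 7 of the 17527 gene symbols counted. All 7 passed the filter on low counts and are among the 13711 genes tested. RNA sequencing covered 3 libraries from aged mice given EGCG (epigallocatechin gallate, a catechin of green tea), 3 from aged control mice and 3 from young control mice. The sources used here do not give ages, strain, sex, dose, route or length of treatment. Whether a library came from 1 animal, a pool or a repeat is also not stated, so p-values measure only how far these libraries differ, and that spread may be technical.

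Cholesterol is built from acetyl-CoA by way of HMG-CoA and mevalonate, which gives isopentenyl units that are joined into squalene, closed into the ring of lanosterol and then trimmed to cholesterol. The transcription factor SREBP-2, held in the endoplasmic reticulum by INSIG proteins while sterols are plentiful, drives most genes of the route together with NF-Y and Sp1. Lens fibre cell membranes are among the richest in cholesterol of any cell, and the lens makes much of its own. In humans, LSS variants cause congenital cataract and DHCR7 variants cause Smith-Lemli-Opitz syndrome. The Shumiya cataract rat carries variants of Lss and Fdft1.

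The enzymes act in the order Hmgcs1 (HMG-CoA synthase, before mevalonate), Idi1 (isopentenyl-diphosphate isomerase), Fdft1 (squalene synthase), Sqle (squalene epoxidase), Lss (lanosterol synthase, which closes the ring), Cyp51 (lanosterol 14-alpha-demethylase) and Dhcr7 (7-dehydrocholesterol reductase, which makes cholesterol). In the GRCm38 build with GENCODE M21 annotation all 7 are protein coding. Hmgcs1 spans chr13:119690379-119708260 and Idi1 chr13:8885501-8892451, both on the plus strand. Fdft1 spans chr14:63145150-63179578 on the minus strand, Sqle chr15:59315077-59331192 and Lss chr10:76531588-76557138 on the plus strand. Cyp51 spans chr5:4081145-4104746 on the minus strand and Dhcr7 chr7:143823145-143848410 on the plus strand.

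Promoter sequence is shown for Hmgcs1, Dhcr7 and Cyp51, since the first 2 fell with age and Cyp51 was not called in any comparison under the main setting. Idi1 also fell with age and Lss was also not called in any comparison, and their sequences are not shown. RefSeq windows of GRCm38.p6, from 250 bases before to 50 bases after an annotated start, were found for Hmgcs1, Idi1, Lss, Cyp51 and Dhcr7, the last with 3 starts. The 250 bases before the start are given 5′ to 3′ on the strand of the gene, at chr13:119690101-119690350 for Hmgcs1, chr7:143829964-143830213 for the most downstream Dhcr7 start and chr5:4104698-4104947 (minus strand) for Cyp51. Capitals mark the letters of a sterol regulatory element, TCACNCCAC or its shorter form CACNCCAC, and of the NF-Y box, CCAAT, each on either strand (ATTGG is CCAAT read on the other strand).
Hmgcs1: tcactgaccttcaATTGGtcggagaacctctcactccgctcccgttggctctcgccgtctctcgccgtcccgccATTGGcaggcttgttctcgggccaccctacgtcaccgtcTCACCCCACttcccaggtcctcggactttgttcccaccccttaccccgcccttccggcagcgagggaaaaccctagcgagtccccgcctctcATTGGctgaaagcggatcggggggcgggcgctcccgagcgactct
Dhcr7: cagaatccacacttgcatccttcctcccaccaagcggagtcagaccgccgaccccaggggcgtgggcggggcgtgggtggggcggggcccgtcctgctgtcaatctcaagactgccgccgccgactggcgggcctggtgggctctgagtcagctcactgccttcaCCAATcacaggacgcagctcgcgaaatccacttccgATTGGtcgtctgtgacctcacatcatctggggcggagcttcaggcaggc
Cyp51: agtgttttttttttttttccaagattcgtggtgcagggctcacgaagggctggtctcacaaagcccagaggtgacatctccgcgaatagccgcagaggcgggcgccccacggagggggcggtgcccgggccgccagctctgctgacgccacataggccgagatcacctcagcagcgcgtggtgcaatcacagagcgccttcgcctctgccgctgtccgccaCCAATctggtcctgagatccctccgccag
TCACNCCAC stood in the Hmgcs1 window as TCACCCCAC, starting 137 bases before the start, and in no other window of these 5 genes. It was found in 1.24% of the 32851 mouse windows, and the shorter form, which overlaps it, in 6.24%. CCAAT was found in all 5 genes, in Dhcr7 only in the most downstream of its 3 windows, and in 37.4% of all windows. The Hmgcs1 window had 4 matches, of which 3 lie in the stretch shown. GGGCGG, the letters of an Sp1 site on either strand, was also found in all 5 genes, though not in the second Dhcr7 window. Its rate over all windows was 35.7%. For both motifs a gene with 3 windows counts once, so the numbers of genes cannot be set directly against the percentages of windows. CACGTG was found only in the second Dhcr7 window, against 7.15% of all windows. A match is a description of the letters and not a binding site.

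Library totals were 13184169 to 16528179 counts, and 3 counts in a library correspond to 0.182 to 0.228 CPM, the count relative to the library total. The 20 lens fibre markers summed to 38730 CPM in EGCG, 44307 CPM in aged control and 39306 CPM in young control libraries, and the 15 lens epithelium markers to 4065, 4527 and 2874 CPM in the same groups. With age 15 of the 20 fibre markers were called higher and 5 lower, beside 35.4% and 33.8% of all genes. Their log2 fold changes ran from -1.72 to 1.51, so the sum does not stand for each marker. Retinal transcripts were present as well. The 21 rod and cone markers summed to between 10999 and 11206 CPM in EGCG, 1418 and 1482 CPM in aged control and 24632 and 24783 CPM in young control libraries, and 6 red blood cell markers averaged 22.3, 6.99 and 211 CPM. With age 21 of 21 rod and cone markers were lower, and with EGCG 21 of 21 were higher than in aged control. The part of these transcripts in the results on the 7 enzymes was not tested. In bulk tissue, fewer cells of a type and less RNA per cell cannot be told apart.

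With length taken into account (deposited FPKM, fragments divided by the gene's length and by the library's total), Hmgcs1 was the most abundant of the 7 in each group, with 18.6 ± 0.441 in EGCG, 19.6 ± 1.48 in aged control and 28.4 ± 1.81 in young control libraries (SD, n = 3 each). Cyp51 came next in each group, at 12.3 ± 0.419, 11.6 ± 0.97 and 14.9 ± 0.023 FPKM. Idi1 was the least abundant, at 2.51 ± 0.39, 2.01 ± 0.471 and 3.76 ± 0.237 FPKM. Sqle and Fdft1 followed, and their order could not be set in EGCG libraries, where Sqle had 8.14 ± 1.18 FPKM and Fdft1 8.53 ± 0.118 FPKM. Lss and Dhcr7 stood above Idi1. Lss exceeded Dhcr7 in all EGCG and aged control libraries, with means of 5.35 against 4.20 FPKM in EGCG and 4.48 against 3.62 FPKM in aged control, whereas in young control libraries Dhcr7 exceeded Lss, with 7.60 against 5.87 FPKM.

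With age, 4 of the 7 enzymes fell and none rose. The change was 1.68-fold in Dhcr7, the last enzyme, and less in Idi1, Sqle and Hmgcs1. Fdft1, Lss and Cyp51 did not pass the test. Of all genes tested, 69.2% were called, 35.4% higher and 33.8% lower, so 4 of 7 called is near the background and is not a result about the enzymes as a group. The groups did not overlap in 4 of the 7, against 72.1% of all genes. The median log2 fold change of the 7 was -0.21, beside 0.02 over all genes tested. Levels of single genes are given as TMM-scaled CPM, and tests are the two-sided quasi-likelihood test of edgeR, adjusted over all genes tested, with a call at an adjusted p under 0.05.

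**Figure D1:**
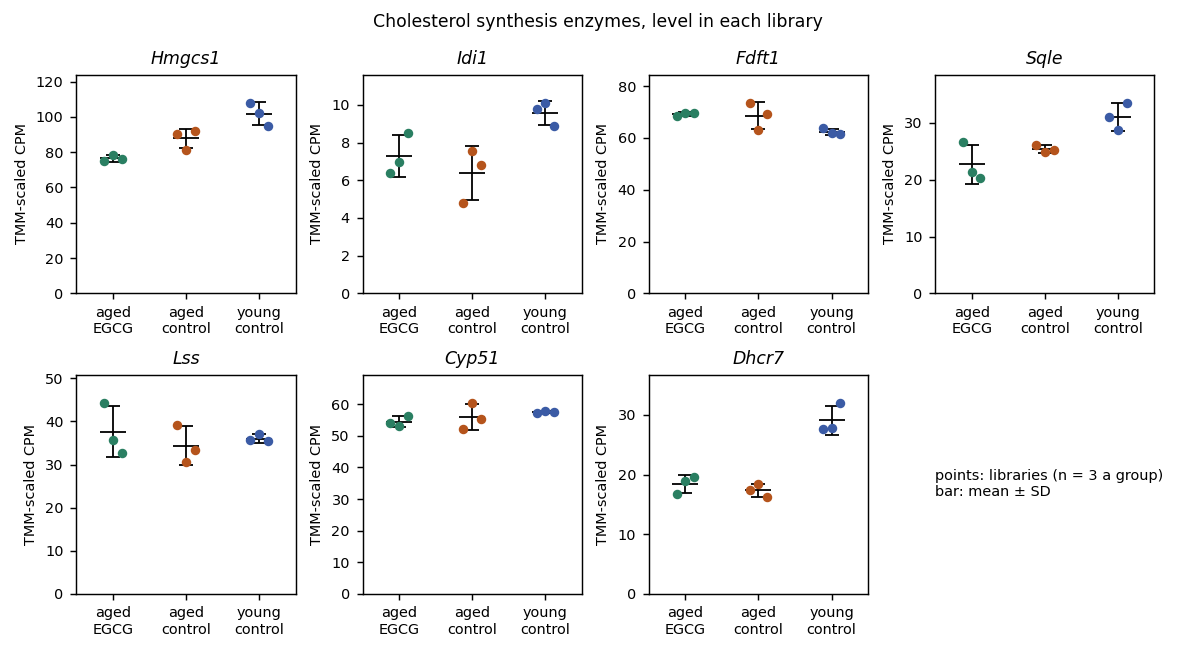
TMM-scaled CPM (y axis) of the 7 enzymes, 1 panel a gene, in the 3 aged EGCG, 3 aged control and 3 young control libraries (points) with the group mean and SD. Dhcr7 lies between 16.2 and 19.6 CPM in the 6 aged libraries and between 27.6 and 31.9 CPM in the young control libraries.

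Hmgcs1 had 75.0, 78.4 and 75.9 CPM in EGCG libraries, 90.2, 81.5 and 91.8 CPM in aged control libraries and 108, 102 and 94.9 CPM in young control libraries. The 3 groups do not overlap, with the EGCG libraries lowest and the young libraries highest. With age Hmgcs1 was 1.16-fold lower (log2 fold change -0.21, SE 0.0643, edgeR adjusted p = 0.00346). Without the second aged control library the call was lost (log2 fold change -0.15, edgeR adjusted p = 0.0533).

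Idi1 had 6.37, 6.99 and 8.51 CPM in EGCG libraries, 4.81, 7.55 and 6.81 CPM in aged control libraries and 9.77, 10.1 and 8.86 CPM in young control libraries. Every aged library, treated or not, lay under every young one, while the EGCG and aged control libraries overlap. Idi1 was lower in aged control than in young control, with -0.58 on the log2 scale (SE 0.196, edgeR adjusted p = 0.00797). It rested on 70 to 112 counts in an aged control library and 145 to 162 in a young one. Without the first aged control library the log2 fold change was -0.41 and the call was lost (edgeR adjusted p = 0.0795).

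Sqle had 26.6, 21.3 and 20.2 CPM in EGCG libraries, 26.1, 24.9 and 25.2 CPM in aged control libraries and 31.0, 28.7 and 33.5 CPM in young control libraries. All aged libraries lay under the young ones. The fall with age was 1.22-fold (log2 fold change -0.29, SE 0.107, edgeR adjusted p = 0.0151). It was lost without the third young control library (log2 fold change -0.23, edgeR adjusted p = 0.0959).

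Dhcr7 had 16.7, 18.98 and 19.6 CPM in EGCG libraries, 17.5, 18.4 and 16.2 CPM in aged control libraries and 27.6, 27.9 and 31.9 CPM in young control libraries. The young libraries stand apart from all 6 aged ones. Dhcr7 averaged 17.3 ± 1.11 CPM in aged control and 29.1 ± 2.44 CPM in young control libraries (n = 3 each, SD), with a log2 fold change of -0.75 (95% interval -0.98 to -0.52, edgeR adjusted p = 1.57e-07). The call held in each of the 9 fits with 1 library left out, with log2 fold changes between -0.79 and -0.68. Rod and cone markers also fell with age. Between the EGCG and aged control libraries, whose summed rod and cone markers were 11127 and 1460 CPM, Dhcr7 averaged 18.4 and 17.3 CPM. The part of retinal transcripts in the Dhcr7 values was not tested.

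Fdft1 had 68.5, 69.7 and 69.8 CPM in EGCG libraries, 73.4, 63.1 and 69.2 CPM in aged control libraries and 63.7, 62.1 and 61.5 CPM in young control libraries. The second aged control library lies among the young ones. The log2 fold change with age was 0.13 (95% interval -0.01 to 0.28, edgeR adjusted p = 0.0831), and without that library it was 0.20 and passed (edgeR adjusted p = 0.0209). Fdft1 overlaps Ctsb, a lysosomal protease gene on the other strand. Whether strand was used in counting is not known, so reads from the stretch that both genes cover cannot be told apart. Ctsb had a log2 fold change of 0.23 with age (edgeR adjusted p = 5.29e-05), and its part in the Fdft1 values was not tested.

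Lss had 44.2, 35.8 and 32.7 CPM in EGCG libraries, 39.3, 30.5 and 33.4 CPM in aged control libraries and 35.6, 37.1 and 35.4 CPM in young control libraries. All 3 groups overlap, and the first library of both aged groups is the highest of its group. The log2 fold change with age was -0.07 (95% interval -0.27 to 0.14, edgeR adjusted p = 0.569). Cyp51 had 53.9, 53.2 and 56.4 CPM in EGCG libraries, 52.0, 60.3 and 55.4 CPM in aged control libraries and 57.2, 58.0 and 57.4 CPM in young control libraries. The aged control libraries spread on both sides of the young ones. Its log2 fold change with age was -0.04 (95% interval -0.19 to 0.11, edgeR adjusted p = 0.637). Cyp51 shares its locus with Akap9, a scaffold protein gene on the other strand that fell with age (log2 fold change -0.91, edgeR adjusted p = 9.47e-13), and its part in the Cyp51 values was not tested. Hmgcs1, Idi1 and Lss overlap Gm48342, Gm48574 and 4930483K19Rik on the other strand, none of which has a value here.

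These changes depend on how libraries are scaled. Scaling by library size alone moved the median log2 fold change of all genes with age by -0.32, by the lens fibre markers by -0.50 and by FPKM with a pseudocount of 1 by -0.28. TMM factors were 0.881 to 0.926 in aged control and 1.12 to 1.13 in young control libraries. In each of these 3 settings all 7 enzymes were called lower with age. The median of the 7 was -0.53, -0.71 and -0.51, beside -0.30, -0.48 and -0.18 over all genes tested. The share of all genes called lower in these settings is not given here, so 7 of 7 is not read as a result about the enzymes. The share of higher calls among all genes called was 51.1% under TMM, 31.3% by library size, 20.2% by lens fibre markers and 31.4% by FPKM. Dhcr7, Idi1, Sqle and Hmgcs1 were called lower under the main setting and all 12 alternatives that kept every library, whereas Fdft1 changed sign to -0.19 by library size and -0.37 by lens fibre markers. Over all genes tested, the log2 fold change with age fell with gene length (Spearman rho -0.33), and Fdft1 is the longest of the 7, at 8003 bases. With the trend of fold change on gene length removed, Fdft1 was called higher (log2 fold change 0.46).

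The share that each enzyme takes of the summed counts of all 7 does not depend on the scaling between libraries. Dhcr7 took 6.45% ± 0.634 in EGCG, 5.87% ± 0.509 in aged control and 8.90% ± 0.851 in young control libraries (SD, n = 3 each). Fdft1 took 24.2% ± 0.615 in EGCG, 23.2% ± 1.09 in aged control and 19.1% ± 0.0739 in young control libraries. No aged library overlapped a young one in either share, Dhcr7 taking less and Fdft1 more in aged tissue. The shares of the 7 make up a fixed whole, so the share of 1 enzyme rises when others fall. A larger Fdft1 share therefore need not be a rise of Fdft1, which did not pass the test with age under the main setting. Hmgcs1 took the largest share in every group, at 26.7% ± 0.913 in EGCG, 29.7% ± 1.17 in aged control and 31.0% ± 1.56 in young control libraries. The 2 control groups overlap in that share.

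**Figure D2:**
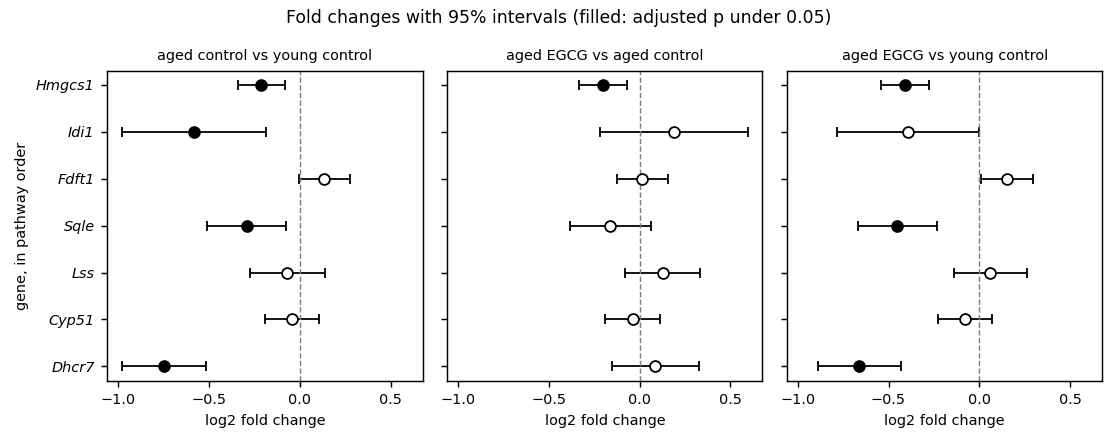
log2 fold change (x axis) of each enzyme with its 95% interval in 3 comparisons (aged to young control, EGCG to aged control, EGCG to young control), filled where the edgeR adjusted p is under 0.05. Dhcr7 lies at -0.75 and -0.66 in the comparisons with young control and at 0.09 between EGCG and aged control.

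Between EGCG and aged control libraries, 1 of the 7 enzymes changed. Hmgcs1, the first enzyme, was lower in EGCG than in aged control libraries, and the other 6 did not pass the test. Of all genes tested, 24.1% were called, 13.8% higher and 10.3% lower, so 1 of 7 is near the background. The groups did not overlap in 1 of 7, against 33.5% of all genes, and the median log2 fold change was 0.02, beside -0.00 over all genes.

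Hmgcs1 averaged 76.5 ± 1.75 CPM in EGCG and 87.8 ± 5.57 CPM in aged control libraries (SD, n = 3 each), so it fell with EGCG (log2 fold change -0.20, SE 0.066, edgeR adjusted p = 0.0214). Each EGCG library was under each aged control library. The call was lost when replicate 1 or 3 of either group was left out, with edgeR adjusted p between 0.0620 and 0.0805. It was also lost by library size alone, by lens fibre markers and in both FPKM fits. The share of higher calls among all genes called was 57.4% under TMM, 83.5% by library size, 89.1% by lens fibre markers and 82.6% by FPKM with a pseudocount of 1.

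Dhcr7, Idi1 and Sqle, which had fallen with age, did not pass the test with EGCG. For Dhcr7 the log2 fold change was 0.09 (95% interval -0.15 to 0.33, edgeR adjusted p = 0.665). For Idi1 it was 0.19 (95% interval -0.22 to 0.60, edgeR adjusted p = 0.564) and for Sqle -0.16 (95% interval -0.38 to 0.06, edgeR adjusted p = 0.330). Fdft1 and Cyp51 had intervals of -0.13 to 0.16 and -0.19 to 0.11. Lss had 0.13 (95% interval -0.08 to 0.33, edgeR adjusted p = 0.412), and scaled by lens fibre markers Lss and Fdft1 were called higher, at 0.30 and 0.19.

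**Figure D3:**
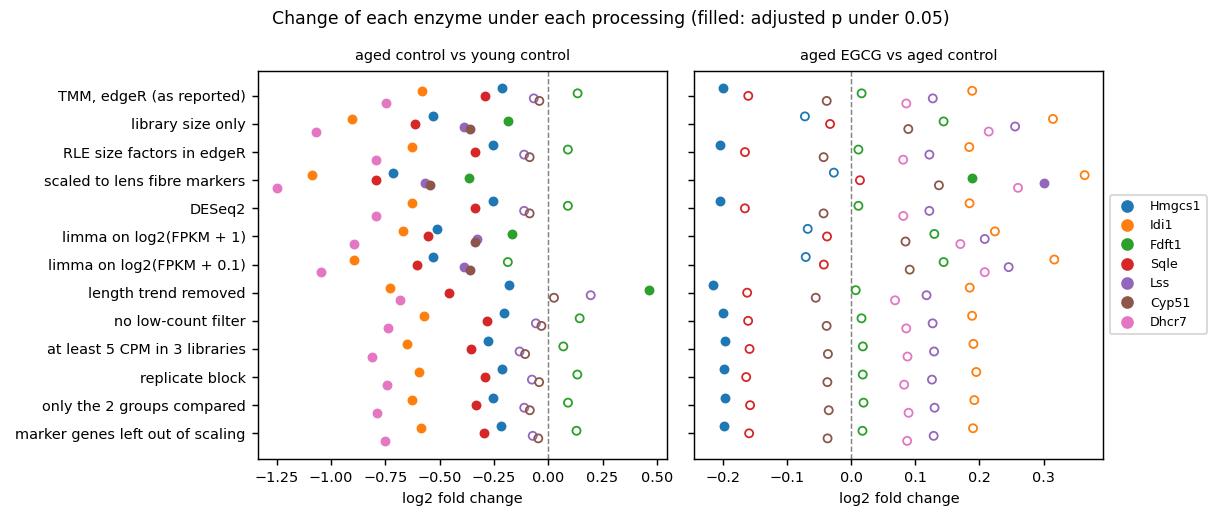
log2 fold change (x axis) of each enzyme under the main setting and 12 alternatives that keep every library, for the comparison with age and that with EGCG in aged tissue. With age, Dhcr7, Idi1, Sqle and Hmgcs1 lie below 0 in every setting, and Fdft1 lies on both sides of 0.

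EGCG-treated aged libraries, compared with young control, differed in 3 enzymes, all lower. The EGCG libraries are shared with the previous comparison and the young libraries with the first, so the 3 comparisons are not independent and their values are given side by side. Of all genes 63.6% were called, 32.3% higher and 31.4% lower, and 68.3% did not overlap, against 3 of 7 enzymes called and 6 of 7 without overlap. The median log2 fold change was -0.39, beside -0.02 over all genes. Hmgcs1 was 1.33-fold lower (log2 fold change -0.41, edgeR adjusted p = 4.13e-07), beside -0.21 for aged control against young control. Sqle was 1.37-fold lower (-0.45, edgeR adjusted p = 0.000355), beside -0.29. Dhcr7 was 1.58-fold lower (-0.66, edgeR adjusted p = 2.10e-06), beside -0.75. Idi1, at -0.39, missed the threshold (edgeR adjusted p = 0.0729), as did Fdft1 at 0.15, Lss at 0.06 and Cyp51 at -0.08. The share of higher calls among all genes called was 50.7% under TMM, 35.8% by library size and 26.4% by lens fibre markers.

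Summed over the 7 enzymes, EGCG libraries had 283.2 to 291.3 CPM, aged control libraries 286.2 to 303.3 CPM and young control libraries 323.4 to 332.8 CPM. The aged groups overlap in this sum and lie under the young one, and Hmgcs1, Fdft1 and Cyp51 carry most of it.

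Of 13 other sterol synthesis enzymes tested, 3 were higher with age, 5 lower and 5 not called, beside 35.4% higher and 33.8% lower of all genes. The median log2 fold change was -0.10. Of all genes called with age, 31.3% were higher by library size and 20.2% by lens fibre markers. By library size 0 of the 13 were higher and 8 lower, and by lens fibre markers 0 were higher and 9 lower. Among the lower ones were Sc5d (sterol C5-desaturase, -0.60, edgeR adjusted p = 2.32e-06), Lbr (-0.62) and Tm7sf2 (-0.61), both sterol C14-reductases, and Acat2 (acetyl-CoA acetyltransferase, the first step, -0.45). These 4 were lower in all 12 alternatives, though some of these moved the median of all genes down as well. Hsd17b7 (3-ketosteroid reductase, 0.60), Mvd (mevalonate diphosphate decarboxylase, 0.42) and Pmvk (phosphomevalonate kinase, 0.31) were higher under TMM but not called by library size, by lens fibre markers or by FPKM, and Pmvk and Mvd were at -0.19 and -0.09 by lens fibre markers. With EGCG, 2 of 13 were higher than in aged control and 0 lower, beside 13.8% and 10.3% of all genes, with Mvk (mevalonate kinase) at 0.37 (edgeR adjusted p = 0.0377), a call lost without the low-count filter and with only the 2 groups compared. Against young control, EGCG libraries had 2 of the 13 higher, Hsd17b7 and Ebp, and 3 lower, Lbr and Sc5d among them, beside 32.3% and 31.4% of all genes.

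Among the 7 SREBP factors and regulators, 4 were higher with age and 2 lower, beside 35.4% and 33.8% of all genes. By library size 2 were higher and 2 lower, and by lens fibre markers 1 was higher and 4 lower. Among all genes called in these settings, 31.3% and 20.2% were higher. Srebf1, which encodes the factor that acts mainly on fatty acid genes, averaged 571 ± 15.2 CPM in EGCG, 542 ± 22.0 CPM in aged control and 194 ± 5.10 CPM in young control libraries (SD, n = 3 each), a 2.80-fold rise with age (edgeR adjusted p = 3.25e-30) that held in all 12 alternatives. Srebf2, which encodes the factor of the sterol genes, averaged 77.9 CPM in EGCG, 73.4 CPM in aged control and 89.0 CPM in young control libraries. Srebf2 fell with age (log2 fold change -0.28, edgeR adjusted p = 0.000219), though with the length trend removed it was not called. Insig1, the sterol-dependent retention factor, was higher at 0.50 (edgeR adjusted p = 1.80e-12), but at -0.01 by lens fibre markers. Scap, the SREBP escort protein, was lower at -0.34 (edgeR adjusted p = 9.72e-05). With EGCG, 1 of 7 was called, beside 24.1% of all genes. It was Insig1, lower than in aged control (log2 fold change -0.13, edgeR adjusted p = 0.0464). That call was lost by library size, lens fibre markers and FPKM, without the low-count filter and with only the 2 groups compared. By library size, lens fibre markers and FPKM, 3 of the 7 were called higher with EGCG. Of all genes called in these settings, 83.5%, 89.1% and 82.6% (FPKM with a pseudocount of 1) were higher. Srebf1 did not pass with EGCG (0.07, edgeR adjusted p = 0.262).

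**Figure D4:**
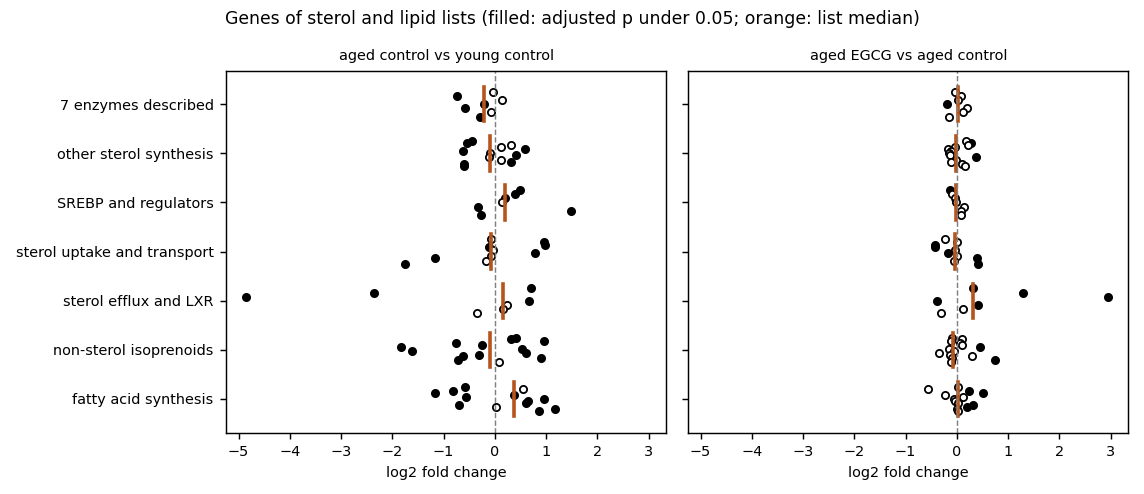
log2 fold change (x axis) of each tested gene of the pathway lists for the comparison with age and that with EGCG in aged tissue, filled where the edgeR adjusted p is under 0.05, with the median of each list marked. The 7 enzymes lie between -0.75 and 0.13 with age and between -0.20 and 0.19 with EGCG.

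The genes whose pattern over the 9 libraries was most like each enzyme were found by the root mean square difference of log2(CPM + 0.5) after each gene was centred, among 10391 genes of at least 5 CPM. They were Klhl9 and Ebna1bp2 for Hmgcs1 (0.0523 and 0.0535), Kbtbd7 and Fam189a2 for Idi1, Ercc3 and Rsl1d1 for Fdft1, Abr and Brpf3 for Sqle, Lamtor5 and Zzz3 for Lss, Ube2j1 and Phf21a for Cyp51, and Zfp740 and Heatr5b for Dhcr7. No enzyme was among the 2 nearest of another. The nearest ranks of one enzyme to another were 158 of 10391 for Hmgcs1 seen from Sqle and 206 for Fdft1 seen from Lss.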

How the data were processed

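The authors deposited raw read counts by gene symbol and a table of FPKM values, which equalled the count over a gene length and the library total within 0.01% in all 137385 entries compared. The library kit was SMARTER mRNA-Seq, per the labels' protocols, and the genome build was GRCm38 (mm10), per the submitters' processing notes. For the aligner, counting tool, annotation and strand setting, the answer is not given in the sources used here.

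Counts were scaled by TMM and tested with edgeR 4.0.16 (R 4.3.3; quasi-likelihood) after filterByExpr, in 1 fit of the 9 libraries, with Benjamini-Hochberg adjustment. The alternatives were library-size, RLE and lens fibre scaling, DESeq2 1.42.0, limma 3.58.1 on log2(FPKM + 1) and log2(FPKM + 0.1), no filter, a filter of 5 CPM in 3 libraries, removal of the length trend, a replicate block, fits of only the 2 groups compared, scaling without markers of other cell types, and each library left out. The scripts were tested on simulated data. The members and lists were chosen with earlier results of these data known. From each list the text names up to 4 called genes of smallest p, and all called ones where a direction has 5 or fewer. Some genes of the lists are not reported here. Other genes, such as Ctsb and Akap9, were named after their values were seen. Promoter windows are RefSeq, GRCm38.p6.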

Additional observations from a re-analysis of the deposited data

How the results depend on the processing

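Depth limits Idi1 most, with 70 to 162 counts a library. Library size, lens fibre markers and both FPKM fits moved the median of all genes down in both comparisons with young control. They moved it up between EGCG and aged control. The number of enzymes called lower with age was 4 under TMM and 7 by library size, by lens fibre markers and by limma on FPKM + 1. The number called higher with age was 0, and 1 with the length trend removed. With EGCG against aged control, 1 was called lower, and 0 by library size, lens fibre markers and both FPKM fits, and 0 were called higher, against 2 by lens fibre markers. With EGCG against young control, 3 were lower, against 5 by library size and both FPKM fits and 7 by lens fibre markers. By RLE, by DESeq2, with the 5 CPM filter and with the length trend removed, 4 were lower. In the same comparison 0 were higher, against 2 with the length trend removed and 1 with only the 2 groups compared. Signs that reversed by library size, lens fibre markers, FPKM + 1 and FPKM + 0.1 were Fdft1 with age at -0.19, -0.37, -0.17 and -0.19, Cyp51 with EGCG at 0.089, 0.14, 0.085 and 0.091, and, with EGCG against young control, Fdft1 at -0.043, -0.18, -0.038 and -0.042 and Lss at -0.13, -0.27, -0.12 and -0.14. Sqle with EGCG was at 0.014 by lens fibre markers. With the length trend removed Lss was at 0.20 and Cyp51 at 0.026 with age, and with the 5 CPM filter Lss was at -0.0030 with EGCG against young control. The cause was not tested. With 1 library left out, enzymes called with age were 0 to 1 higher and 3 to 4 lower, with EGCG against aged control 0 to 1 lower, and with EGCG against young control 0 to 1 higher and 3 to 4 lower. Signs crossed 0 for Lss (-0.17 to 0.020) and Cyp51 (-0.094 to 0.015) with age, for Lss (-0.0054 to 0.23), Fdft1 (-0.042 to 0.069) and Cyp51 (-0.089 to 0.020) with EGCG, and for Lss with EGCG against young control (-0.066 to 0.15). Genes called with 1 library left out were 8960 to 9666 with age, 2803 to 3247 with EGCG and 8009 to 8916 with EGCG against young control. Replicate numbers did not pair libraries: same-number deviations correlated between -0.030 and 0.062, other numbers between -0.056 and 0.020, and in 5 of 18 cases a library correlated best with its own number. With the replicate block 9451, 3338 and 8694 genes were called, against 9482, 3300 and 8725, and no enzyme's call changed. Over all alternatives, 380 values for single genes and medians kept direction and side, 31 gained and 11 lost a call, 26 changed sign and 11 medians moved.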

Other observations

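Of 14 genes of the non-sterol isoprenoid branch, which uses mevalonate products to modify proteins and make ubiquinone and dolichol, 6 were higher and 7 lower in aged control than in young control libraries, beside 35.4% and 33.8% of all genes tested. By library size 2 were higher and 7 lower, and by lens fibre markers 2 were higher and 8 lower. Among all genes called in these settings, 31.3% and 20.2% were higher. Icmt, the methyltransferase of prenylated proteins, averaged 126 ± 4.02 CPM in EGCG, 91.8 ± 5.43 CPM in aged control and 325 ± 4.83 CPM in young control libraries (SD, n = 3 each). Icmt had a log2 fold change of -1.82 with age (edgeR adjusted p = 2.56e-31) and 0.45 with EGCG (edgeR adjusted p = 6.78e-09). Fnta, a farnesyltransferase subunit, and Rabggtb, a subunit of the Rab transferase, were higher with age at 0.97 and 0.90. The sterol exporter gene Abcg4 averaged 11.6 ± 1.60 CPM in EGCG, 1.498 ± 0.437 CPM in aged control and 43.3 ± 1.68 CPM in young control libraries. Abcg4 had a log2 fold change of -4.85 with age (edgeR adjusted p = 1.70e-28) and 2.96 with EGCG (edgeR adjusted p = 1.61e-17). Vldlr, a lipoprotein receptor gene, averaged 42.9 ± 3.85 CPM in EGCG, 32.5 ± 2.71 CPM in aged control and 110 ± 2.70 CPM in young control libraries. The rod and cone markers were lowest in aged control and highest in young control libraries as well, and their part in these 3 genes was not tested.

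Of 13 fatty acid synthesis genes, 6 were higher and 5 lower with age, beside 35.4% and 33.8% of all genes tested. By library size 5 were higher and 6 lower, and by lens fibre markers 4 were higher and 6 lower. Among all genes called in these settings, 31.3% and 20.2% were higher. Scd2, a stearoyl-CoA desaturase, averaged 2761 ± 73.7 CPM in EGCG, 2737 ± 79.0 CPM in aged control and 1503 ± 15.7 CPM in young control libraries (n = 3 each, SD), with a log2 fold change of 0.86 with age (edgeR adjusted p = 1.85e-24). Scd1 was higher at 1.18 and Fads1, a fatty acid desaturase, at 0.96. Acly, which makes the acetyl-CoA used by both routes, averaged 91.0 ± 3.42 CPM in EGCG, 77.5 ± 2.20 CPM in aged control and 136 ± 2.36 CPM in young control libraries. Acly was lower at -0.82 with age (edgeR adjusted p = 1.08e-16) and higher at 0.23 with EGCG (edgeR adjusted p = 0.00301). The groups stand in the same order as in the rod and cone markers, whose part in the Acly values was not tested. The directions named for Icmt, Fnta, Rabggtb, Abcg4, Scd1, Scd2, Fads1 and Acly held in all 12 alternatives that kept every library.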
